A study of Mus musculus with 10 samples.

Results

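Neutrophil granule genes were followed across 10 RNA sequencing libraries of fluorescent cells sorted from the ischemic hemisphere of mouse brain. The genes were S100a8, S100a9, Retnlg, Ngp, Camp, Lcn2, Ltf, Mmp8, Mmp9 and Ly6g, listed by symbol as a measure of neutrophil RNA among cells sorted by a CD11c reporter, and they are 10 of the 28585 genes in the count table. 4 libraries, called transgenic here, held CD11c-eYFP+ cells of Tg(Itgax-Venus)1Mnz mice aged 13 to 14 weeks. 3 libraries, called parabiotic, held CD11c-eYFP+ cells of C57BL/6 mice aged 15 to 16 weeks that shared their circulation with a Tg(Itgax-Venus)1Mnz partner, and 3 held CX3CR1+ microglia of CX3CR1CreERT2:Rosa26-tdT mice aged 13 to 14 weeks. All groups came from the ipsilateral side after brain ischemia, and the mice were labelled female, except that parabiotic replicate 15 has no label for sex or cell type and was placed by its title and age. The reporter of both CD11c groups is driven by Itgax, so the sort selects cells that use that gene and not one cell type. In the parabiotic pairs only cells of the partner carry the reporter. Nothing in the labels says that the samples are separate animals, so p-values measure only the spread between these samples, which may be technical.

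Neutrophils load their granules in a fixed order while they mature in bone marrow. Azurophil granule proteins such as myeloperoxidase and elastase are made first, specific granule proteins such as lactoferrin, cathelicidin and the Ngp protein follow, gelatinase comes later, and transcription of most granule genes falls before the cell reaches blood. After a stroke, neutrophils enter the ischemic brain from the circulation. Not all of the 10 genes encode granule contents. S100a8 and S100a9 encode the 2 chains of calprotectin, a cytosolic calcium-binding protein, Retnlg encodes a secreted resistin-like protein, and Ly6g encodes the surface antigen used to sort mouse neutrophils. Some of the 10 genes, Mmp8, Mmp9, Lcn2 and S100a8 among them, can also be made by other myeloid cells, and this is not a full list.

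The members lie on 5 chromosomes of GRCm38, and S100a8 at chr3:90668978-90670035 and S100a9 at chr3:90692632-90695721 are 22.6 kb apart, on the plus and the minus strand. Promoter windows from RefSeq on GRCm38.p6, from 250 bases before to 50 bases after the transcription start, were found for 9 of the 10 members, Mmp9 being the exception. Both strands were searched for a C/EBP motif, TTNNGNAA, and a PU.1 motif, GAGGAA. These are letters bound by families of factors that act in granulocyte development, and no occurrences of one overlapped the other in the windows shown. The C/EBP letters were present in 8 of 9 members and in 40.7% of 32851 promoters, the PU.1 letters in 5 of 9 members and in 28.3%, and both in 5 of 9 members and in 11.8%. Shown, 5′ to 3′ with the matches in capitals, are the calprotectin pair, whose levels part between libraries, Ngp, with 3 C/EBP matches, Camp, which had neither motif, and Mmp8, whose pattern over libraries departs from the others. The windows are chr3:90668821-90669120 (plus strand) for S100a8, chr3:90695672-90695971 (minus strand) for S100a9, chr9:110419558-110419857 (plus strand) for Ngp, chr9:109849407-109849706 (minus strand) for Camp and chr9:7558179-7558478 (plus strand) for Mmp8.
S100a8: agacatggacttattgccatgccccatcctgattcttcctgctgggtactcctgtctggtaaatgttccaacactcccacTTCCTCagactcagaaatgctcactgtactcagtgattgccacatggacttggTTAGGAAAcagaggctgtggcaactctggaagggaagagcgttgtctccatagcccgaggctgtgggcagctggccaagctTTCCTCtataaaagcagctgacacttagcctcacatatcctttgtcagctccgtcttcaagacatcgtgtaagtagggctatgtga
S100a9: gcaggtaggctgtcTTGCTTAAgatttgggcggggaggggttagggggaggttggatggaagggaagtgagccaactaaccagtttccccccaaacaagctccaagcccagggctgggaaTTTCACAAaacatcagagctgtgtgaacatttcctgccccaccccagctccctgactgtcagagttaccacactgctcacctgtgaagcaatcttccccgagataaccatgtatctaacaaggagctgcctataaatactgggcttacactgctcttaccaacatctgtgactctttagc
Ngp: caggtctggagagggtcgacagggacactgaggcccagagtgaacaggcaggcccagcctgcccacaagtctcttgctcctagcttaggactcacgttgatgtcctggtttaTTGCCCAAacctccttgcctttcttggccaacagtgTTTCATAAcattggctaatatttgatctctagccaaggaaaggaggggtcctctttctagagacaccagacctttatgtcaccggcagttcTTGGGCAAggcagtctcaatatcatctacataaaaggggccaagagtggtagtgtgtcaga
Camp: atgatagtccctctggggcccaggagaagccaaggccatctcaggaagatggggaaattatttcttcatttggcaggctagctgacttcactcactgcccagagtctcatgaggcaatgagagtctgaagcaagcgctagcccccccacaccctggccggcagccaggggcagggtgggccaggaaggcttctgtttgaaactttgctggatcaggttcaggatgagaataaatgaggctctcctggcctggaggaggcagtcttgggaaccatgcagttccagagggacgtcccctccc
Mmp8: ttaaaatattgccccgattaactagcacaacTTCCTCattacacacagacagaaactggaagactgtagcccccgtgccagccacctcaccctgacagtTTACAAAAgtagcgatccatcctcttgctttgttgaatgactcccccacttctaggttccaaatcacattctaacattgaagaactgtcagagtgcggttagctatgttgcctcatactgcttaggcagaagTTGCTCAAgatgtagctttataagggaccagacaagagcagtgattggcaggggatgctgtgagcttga
A match is a run of letters in the reference sequence and not a measured binding site.

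Each library held between 31534625 and 41730688 counts over genes, so 1 count was worth 0.0240 to 0.0317 CPM, which is the count per 1000000 counts of its library. The sorts carried the markers of their labels: the summed CPM of 6 dendritic cell markers was 912 to 3377 in transgenic, 5538 to 6919 in parabiotic and 67.9 to 116.7 in microglia libraries, and that of 5 microglial markers was 3771 to 9776, 1558 to 2295 and 12319 to 12976 in the same groups. Transgenic replicates 26 and 27 have library numbers apart from the other 8. No replicate pair was close to sampling noise, since the chi-square of their counts per degree of freedom lay between 16.8 and 303.9.

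Together the 10 genes made up 0.00187%, 0.00251%, 0.00363% and 0.00581% of the counts in transgenic replicates 23, 24, 26 and 27. Their share was 0.00739%, 0.105% and 0.0184% in parabiotic replicates 3, 11 and 15. In microglia replicates 39, 40 and 41 the share was between 0.000179% and 0.000276%. The summed level was 34.6 ± 17.3 CPM in transgenic cells (SD, n = 4), 437 ± 536 CPM in parabiotic cells (SD, n = 3) and 2.26 ± 0.49 CPM in microglia (SD, n = 3). The groups do not overlap in this sum, and within the parabiotic group the SD exceeds the mean, because replicate 11 stood at 1052 CPM against 73.9 CPM in replicate 3. In bulk RNA, fewer cells of a type and less RNA per cell cannot be told apart, and the number of neutrophils in a sort was not measured.

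**Figure D1:**
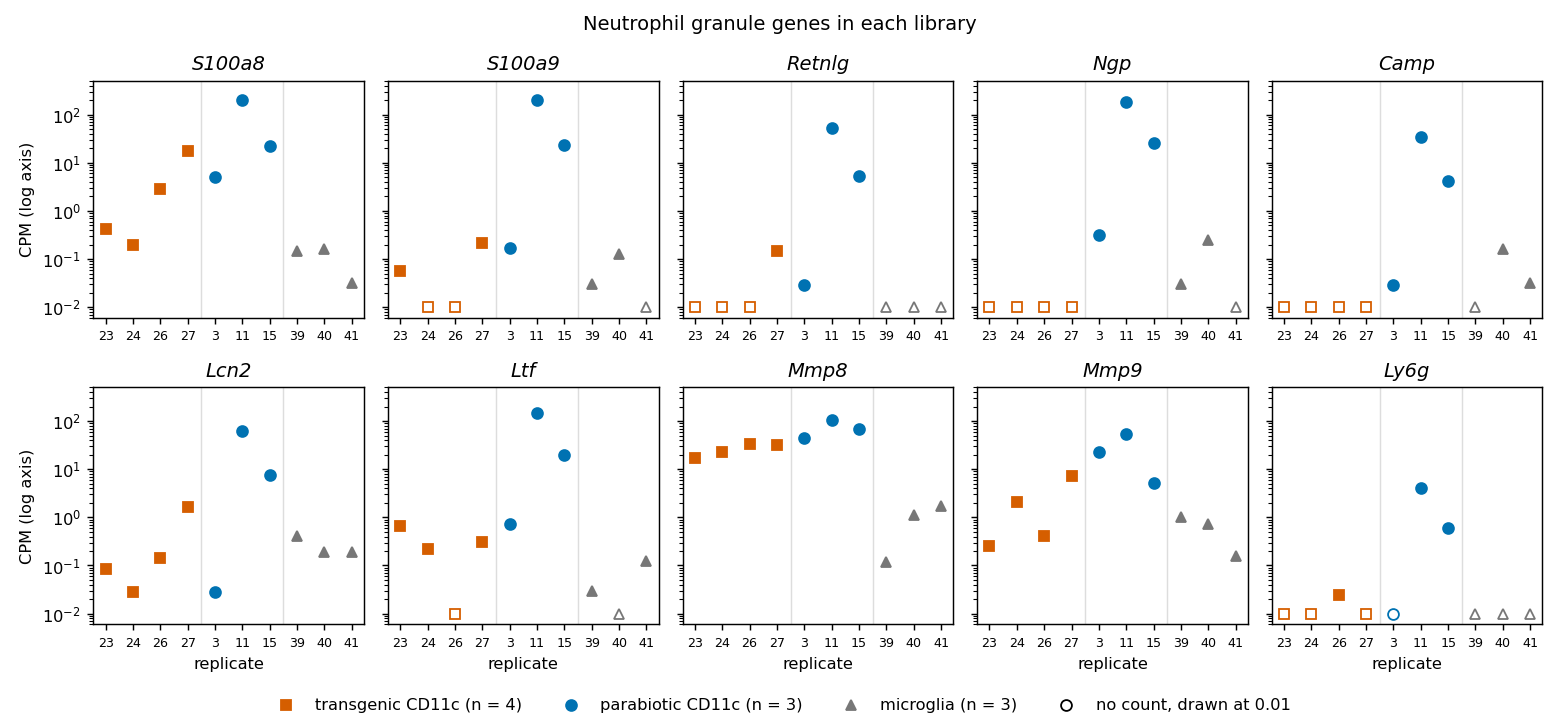
CPM of each of the 10 genes (log axis) in every library, with transgenic replicates at the left, parabiotic replicates in the middle and microglia at the right, and open symbols for libraries with no count. Parabiotic replicate 11 holds the highest value of all 10 genes, while only Mmp8 lies above 10 CPM in every CD11c library.

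The members were divided into 2 sets by their highest level outside parabiotic replicates 11 and 15. S100a8, Mmp8 and Mmp9 were present in every library, and their sum was 17.9 to 55.8 CPM in transgenic, 72.6 to 357.8 CPM in parabiotic and 1.28 to 2.03 CPM in microglia libraries. The other 7 genes were at or under 1.68 CPM everywhere except parabiotic replicates 11 and 15. Their sum was 0.170 to 2.35 CPM in transgenic libraries, 1.28, 694.1 and 87.9 CPM in parabiotic replicates 3, 11 and 15, and 0.343 to 0.729 CPM in microglia.

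The calprotectin genes show the split within 1 protein complex. S100a8 stood at 0.429, 0.192, 2.81 and 17.5 CPM in transgenic libraries 23, 24, 26 and 27, at 5.01, 200.2 and 22.2 CPM in parabiotic libraries 3, 11 and 15, and at 0.149, 0.159 and 0.0311 CPM in microglia. S100a9 stood at 0.0572, 0, 0 and 0.216 CPM in the transgenic libraries, at 0.171, 206.5 and 23.96 CPM in the parabiotic libraries, and at 0.0298, 0.127 and 0 CPM in microglia. Transgenic replicate 27 and parabiotic replicate 3 thus had S100a8 with hardly any S100a9. The ratio of S100a8 to S100a9 counts was 0.970 (95% exact interval 0.937 to 1.00) in parabiotic replicate 11 and 0.928 (0.840 to 1.03) in replicate 15. It was 29.3 (13.2 to 81.0) in parabiotic replicate 3 and 81 (42.4 to 178) in transgenic replicate 27, and transgenic replicate 26 had 116 S100a8 counts and none of S100a9. These intervals, like all intervals and floors given here, cover counting error only. In both parabiotic libraries rich in the other members the 2 genes had about equal counts, and where those members were low S100a8 exceeded S100a9 in each CD11c library.

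**Figure D2:**
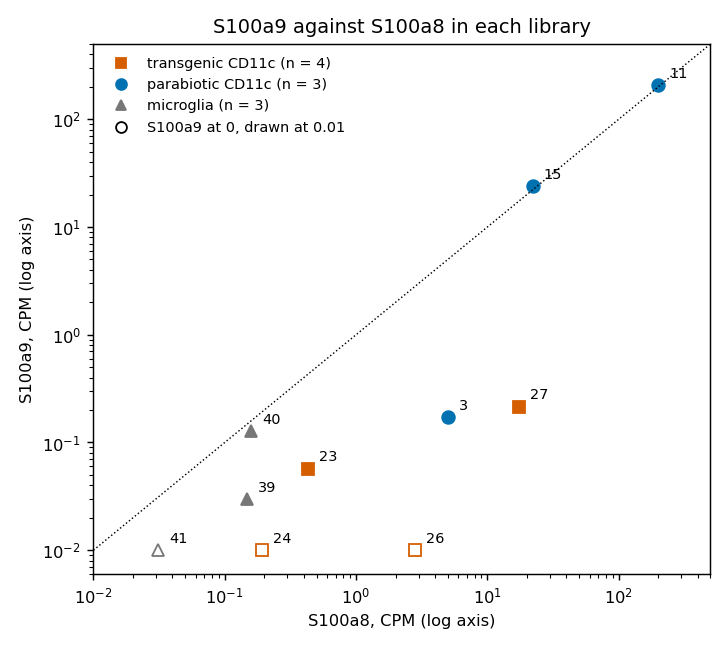
CPM of S100a9 against that of S100a8 in each library (log axes), numbered by replicate, with the dotted line marking equal CPM. Parabiotic replicates 11 and 15 lie on the line, at ratios of 0.970 and 0.928, while parabiotic replicate 3 and transgenic replicates 23, 24, 26 and 27 lie below it.

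Among specific granule genes, Ngp, a cystatin-like protein of neutrophil granules, had no count in the 4 transgenic libraries, 0.313, 187.1 and 26.003 CPM in parabiotic replicates 3, 11 and 15, and 0.0298, 0.254 and 0 CPM in microglia. Camp, the cathelicidin antimicrobial peptide precursor, likewise had no count in any transgenic library, 0.0285, 35.0 and 4.29 CPM in the parabiotic libraries, and 0, 0.159 and 0.0311 CPM in microglia. Ltf, the iron-binding protein lactoferrin, had 0.657, 0.220, 0 and 0.312 CPM in transgenic libraries, 0.712, 146.6 and 20.2 CPM in parabiotic libraries, and 0.0298, 0 and 0.125 CPM in microglia. For Ngp and Ltf the lowest parabiotic library lay above every transgenic and microglia library, by 0.712 against 0.657 CPM in the case of Ltf. For Camp the value of microglia replicate 40 lay above parabiotic replicate 3. Camp, Ngp and Ltf sit in this order on chromosome 9, separated by 570 and 596 kb.

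Lcn2, which binds bacterial siderophores and so withholds iron, had 0.0858, 0.0275, 0.146 and 1.68 CPM in transgenic libraries, 0.0285, 61.5 and 7.61 CPM in parabiotic libraries and 0.417, 0.190 and 0.187 CPM in microglia. Parabiotic replicate 3, with 1 count, was lower than every microglia library. Retnlg had 6 counts in transgenic replicate 27 and none in the other transgenic libraries, then 0.0285, 53.4 and 5.22 CPM in parabiotic replicates 3, 11 and 15, and no count in microglia. Ly6g had 1 count in the transgenic group, in replicate 26, with 0, 4.03 and 0.612 CPM in the parabiotic libraries and no count in microglia. So the surface antigen that defines mouse neutrophils was detected beyond 1 count in parabiotic replicates 11 and 15 only. Ly6g belongs to a family of close paralogs, and the sources used here do not say how reads shared between paralogs were counted, so its level is uncertain.

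The secreted proteases behaved otherwise. Mmp8, neutrophil collagenase, had 17.2, 22.5, 33.0 and 31.2 CPM in the 4 transgenic libraries in the same order, 44.3, 104.3 and 68.8 CPM in the 3 parabiotic libraries, and 0.119, 1.14 and 1.71 CPM in microglia. Its groups are ordered without overlap, transgenic between parabiotic and microglia. Mmp9, gelatinase B, had 0.257, 2.09, 0.413 and 7.07 CPM in transgenic libraries, 23.3, 53.2 and 5.16 CPM in parabiotic libraries and 1.01, 0.729 and 0.156 CPM in microglia. Its lowest parabiotic value was in replicate 15, below transgenic replicate 27, although replicate 15 held the second highest level of the 7 scarce genes. Mmp9 in replicate 15 was 0.222 times that in replicate 3 (0.187 to 0.261), while Mmp8 in replicate 15 was 1.55 times that in replicate 3 (1.46 to 1.66).

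Scaled by length, as CPM per kb of annotated exon, the members ranked S100a9 396, S100a8 289, Ngp 153, Retnlg 90.1, Camp 46.1, Mmp8 43.0, Ltf 42.5, Lcn2 23.5, Mmp9 15.0 and Ly6g 4.28 in parabiotic replicate 11. In parabiotic replicate 3 the highest was Mmp8 at 18.3 CPM per kb, then S100a8 at 7.22 and Mmp9 at 6.58. In transgenic replicate 27 it was S100a8 at 25.2 CPM per kb, then Mmp8 at 12.9. S100a9, first in parabiotic replicate 11, was under 1 CPM per kb in both of these libraries.

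The 3 parabiotic libraries differed from one another far more than counting error for most members. Replicate 11 exceeded replicate 15 by 9.00 times for S100a8 (8.35 to 9.72), 8.62 times for S100a9 (8.02 to 9.28), 8.16 times for Camp (6.87 to 9.76) and 8.08 times for Lcn2 (7.10 to 9.23). It exceeded replicate 15 by 7.20 times for Ngp (6.71 to 7.73), 7.24 times for Ltf (6.69 to 7.86), 10.2 times for Retnlg (8.77 to 12.01) and 6.59 times for Ly6g (4.14 to 11.0). Of all 10, Mmp8 was alone in a far smaller ratio, 1.52 (1.44 to 1.60), and Mmp9 had 10.3 (8.84 to 12.1). Against replicate 3, replicate 11 was 598 times higher for Ngp (334 to 1198), 206 times for Ltf (139 to 319), 40.0 times for S100a8 (34.4 to 46.7), 2.35 times for Mmp8 (2.22 to 2.499) and 2.29 times for Mmp9 (2.10 to 2.49). For S100a9 the ratio of replicate 11 to replicate 3 was 1209, from 6862 and 6 counts, and for Ly6g, with no count in replicate 3, its lower bound was 37.9.

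**Figure D3:**
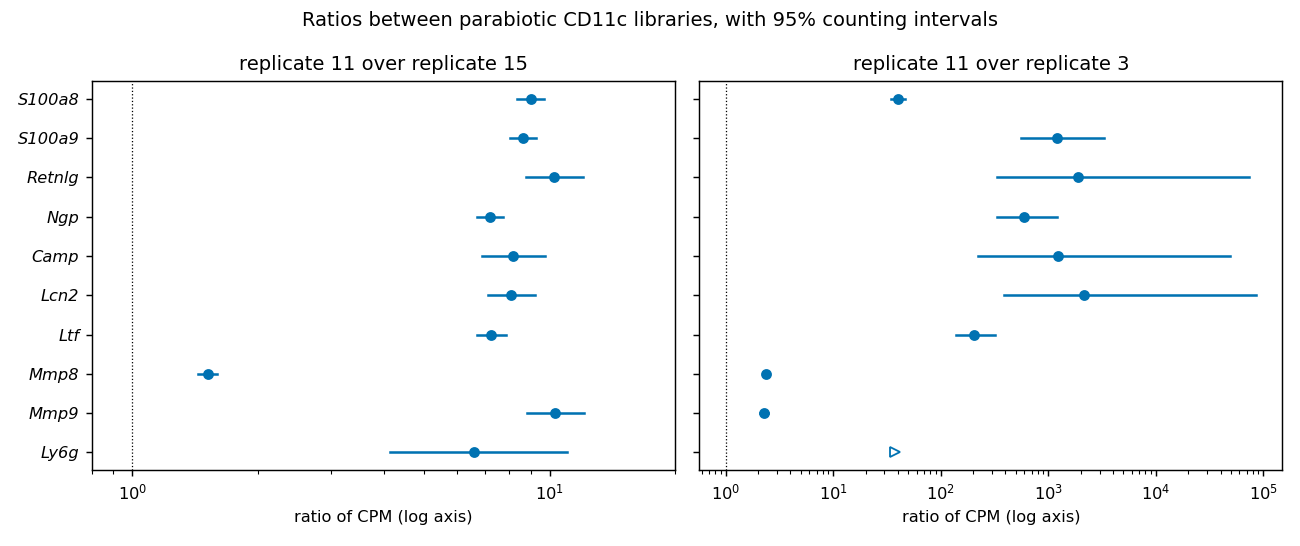
Ratio of CPM between parabiotic replicates for each gene (log axis) with its 95% counting interval, replicate 11 over 15 at the left and replicate 11 over 3 at the right, and a triangle at the lower bound for Ly6g, which has no count in replicate 3. 9 genes have ratios of 6.59 to 10.3 at the left with Mmp8 at 1.52, while at the right the genes spread from 2.29 for Mmp9 to 2161 for Lcn2.

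A descent of at least 4-fold from replicate 11 to 15 and again from 15 to 3 was found in 20 of 11571 genes with at least 1 CPM in replicate 11, with values under 0.05 CPM set to 0.05. This criterion was chosen after the members' values were seen and carries no test. 8 of the 20 were members, all but Mmp8 and Mmp9. Of the other 12, Cxcr2, the chemokine receptor of neutrophils, had 0.0285, 8.34 and 1.34 CPM in parabiotic replicates 3, 11 and 15. Wfdc21 had 5.09 CPM, Chil1 6.80 CPM and Nlrp12 3.22 CPM in replicate 11. A further 5 were immunoglobulin variable genes, led by Igkv3-2 at 7.10 CPM in replicate 11, and the remaining 3 were Cd163l1, Gm37783 and Pard6b.

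Summed markers of other cells did not show a 4-fold descent of this kind. The summed level in parabiotic replicates 3, 11 and 15 was 2370, 1931 and 1862 CPM for 8 monocyte markers, 6913, 5538 and 6919 CPM for 6 dendritic cell markers, and 18.4, 15.3 and 15.1 CPM for 6 eosinophil markers with a row. For 6 mast cell and basophil markers it was 2.56, 1.66 and 0.525 CPM, for 6 T cell markers 6.72, 12.5 and 15.7 CPM, and for 5 B cell markers 10.5, 14.8 and 23.3 CPM. The sum of 6 red cell markers had the order of the members, at 0.769, 2.498 and 1.37 CPM from 1, 5 and 3 genes with a count, with a range of 1.03 to 1.80 CPM in transgenic and 0.0634 to 0.280 CPM in microglia libraries. That of 6 astrocyte markers had it within a narrow range, at 15.9, 16.9 and 16.3 CPM, and that of 5 endothelial markers did not, at 19.0, 14.1 and 18.6 CPM. Their part in the members' levels was not tested.

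Parabiotic cells, which derive from the partner by the design, were set against the microglia of the brain. With edgeR's quasi-likelihood test over all 15151 genes that passed a low-count filter and Benjamini-Hochberg adjustment, 6 members could be tested, and S100a9, Retnlg, Camp and Ly6g could not, because they had too few counts outside 2 libraries. Those 6 rose in parabiotic cells, where 17.4% of all tested genes rose, 17.9% fell and 35.3% did either; a gene this low elsewhere passes the filter only through the libraries where it is high, so the count is a description. The groups did not overlap for 7 of the 10 members, the exceptions being Camp, Lcn2 and Ly6g, where 16.8% of all genes of the table and 28.4% of the tested genes were higher in this way without overlap. Retnlg is among the 7 through 1 count in parabiotic replicate 3, where microglia had none. S100a9 and Ngp are among them by 6 and 11 counts in that library against 4 and 8 in microglia replicate 40, so these gaps are within counting error. Mmp8 was higher by 6.24 ± 0.70 on the log2 scale (SE, adjusted p = 6.38e-05) and Mmp9 by 5.48 ± 1.30 (adjusted p = 0.00713). Ltf was higher by 10.04 ± 1.96 (adjusted p = 0.00235), S100a8 by 9.40 ± 2.17 (adjusted p = 0.00618), Ngp by 9.58 ± 2.21 (adjusted p = 0.0109) and Lcn2 by 6.48 ± 1.89 (adjusted p = 0.0209). Against 3 counts over the microglia libraries, which had none, Retnlg was at least 617-fold higher and Ly6g at least 48.9-fold higher in parabiotic cells, and at least 84.0-fold and 9.80-fold higher without parabiotic replicate 11. Without parabiotic replicate 3 these bounds were 938-fold and 74.4-fold.

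The calls rested on different libraries. Leaving out parabiotic replicate 11 moved the log2 difference to 6.96 for S100a8, 7.66 for Ltf, 7.19 for Ngp, 4.56 for Mmp9 and 5.89 for Mmp8, all still past the threshold, and to 3.93 for Lcn2, which lost its call (adjusted p = 0.118). Lcn2 also lost its call without microglia replicate 39, 40 or 41 (adjusted p = 0.0664, 0.0812 and 0.0736) and Ngp without microglia replicate 39 (adjusted p = 0.0516). Ngp reached 11.93 without microglia replicate 40, Ltf 11.61 and Mmp8 6.93 without microglia replicate 41, and Mmp8 5.69 without microglia replicate 39. Without parabiotic replicate 3, all 10 members were called, but S100a9, Retnlg, Camp and Ly6g then entered the test through replicates 11 and 15, where they are high, so their calls add no support. With replicates 11 and 15 both left out, an alternative added after the data were seen in which the lone replicate 3 is assumed to vary like the other groups, Mmp8 at 5.51 (adjusted p = 0.00255) and Mmp9 at 5.27 (adjusted p = 0.0344) kept their calls. The adjusted p was then 0.0869 for S100a8, 0.161 for Ltf, 0.565 for Ngp and 0.483 for Lcn2, and Lcn2 fell on the other side of 0, at -3.01. limma-voom likewise called only 2 of the 6. Without a low-count filter 3 of the 6 kept their calls, and the adjusted p was 0.0511 for S100a8, 0.111 for Lcn2 and 0.128 for Ngp.

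Transgenic cells were set against microglia in the same fit, with the same microglia libraries as before, to compare CD11c cells that arise in the reporter mouse itself with microglia. Only Mmp8 of the 6 tested members rose, by 4.75 ± 0.65 on the log2 scale (SE, adjusted p = 0.00106), where 8.88% of all tested genes rose, 4.79% fell and 13.7% did either. The groups did not overlap for 2 of 10 members, Mmp8 and S100a8, where 8.98% of all genes of the table and 15.6% of the tested genes were higher without overlap. S100a8 is among them by 7 counts in transgenic replicate 24 against 5 in microglia replicate 40. S100a8 differed by 5.56 ± 2.01 (adjusted p = 0.0851), Mmp9 by 2.02 ± 1.14 (adjusted p = 0.243), Ltf by 2.44 ± 2.24 (adjusted p = 0.474) and Lcn2 by 0.94 ± 1.75 (adjusted p = 0.740). Mmp8 lay between 4.19, without microglia replicate 39, and 5.43, without microglia replicate 41, in the fits that left out 1 library. S100a8 crossed the threshold without transgenic replicate 24 (5.96, adjusted p = 0.0488), its difference was 3.42 without transgenic replicate 27 (adjusted p = 0.252), and with a term for the library numbers of replicates 26 and 27 its difference was 1.43 (adjusted p = 0.807). With the same term that of Mmp8 was 4.32 (adjusted p = 0.00209). Ngp had no count in transgenic cells against 9 in microglia, and Camp none against 6. A floor of 3 counts over the 4 transgenic libraries would put Ngp at least 4.76-fold lower and Camp at least 3.17-fold lower. But 8 of the 9 Ngp counts and 5 of the 6 Camp counts were in microglia replicate 40, no bound can be given without that library, and Ngp did not pass the test (adjusted p = 0.565).

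Transgenic cells were then set against parabiotic cells, which compares all reporter cells of the injured brain with those that came through the shared circulation. Ngp, Ltf and Lcn2 fell in transgenic cells, 3 of the 6 tested members, where 2.42% of all tested genes fell, 7.63% rose and 10.1% did either. The groups did not overlap for 4 of 10 members, Ngp, Camp, Ltf and Mmp8, where 5.91% of all genes of the table and 9.46% of the tested genes were lower without overlap. Camp is among them through 1 count in parabiotic replicate 3, and Ltf through 25 counts there against 23 in transgenic replicate 23. Ltf fell by 7.59 ± 1.43 on the log2 scale (SE, adjusted p = 0.00615) and Lcn2 fell by 5.53 ± 1.56 (adjusted p = 0.0460). Ngp, at 0 counts against 7121, was at least 3568-fold lower (adjusted p = 0.0126), and Camp, at 0 counts against 1310, at least 656-fold lower. Both bounds rest on parabiotic replicate 11, without which they are 669-fold for Ngp and 109.6-fold for Camp, and without parabiotic replicate 3 they are 5416-fold and 997-fold. Mmp8 differed by -1.49 ± 0.50 (adjusted p = 0.0904), Mmp9 by -3.47 ± 1.03 (adjusted p = 0.0564) and S100a8 by -3.84 ± 1.36 (adjusted p = 0.107). Ly6g, at 1 count against 155, had a ratio of 0.00429 (0.000108 to 0.0243). This ratio pools libraries that differ, since 134 of the 155 counts were in parabiotic replicate 11, 21 in replicate 15 and none in replicate 3.

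In this comparison Lcn2 lost its call without any 1 of transgenic replicates 23, 24 and 26, parabiotic replicates 11 and 15 and microglia replicates 39, 40 and 41 (adjusted p between 0.0684 and 0.308). Without transgenic replicate 27, S100a8 at -6.01 (adjusted p = 0.0154) and Mmp9 at -4.92 (adjusted p = 0.00756) were called as well, and the members called came to 5. Without parabiotic replicate 3 or any 1 microglia library, 10 members passed the filter instead of 6, so the counts of calls, 6 or 7, cannot be set beside the 3 with all libraries. Of the 3, all kept their calls without parabiotic replicate 3 and 2 did without a microglia library. Without parabiotic replicate 11, Ltf was still called, at -5.21. With parabiotic replicates 11 and 15 both left out, the difference was -1.30 for Ltf (adjusted p = 0.784) and -0.79 for Mmp8 (adjusted p = 0.754), and edgeR called 0 of the 6, with 2 at an unadjusted p under 0.05. With all libraries, DESeq2 called 7 of 10 members it tested, the 3 among them. limma-voom called none of the 3 (adjusted p = 0.245 for Ngp, 0.234 for Ltf and 0.483 for Lcn2) and called Mmp8 (adjusted p = 0.0318) and Mmp9 (adjusted p = 0.0416).

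**Figure D4:**
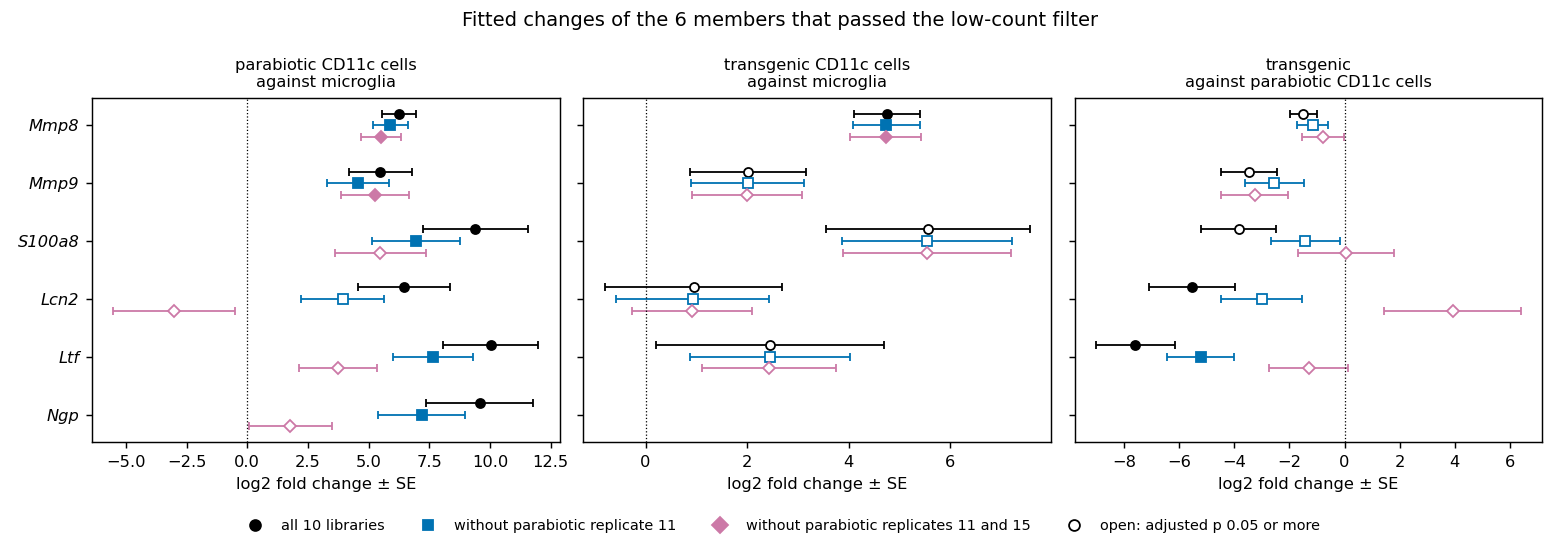
Log2 fold change (edgeR), with an SE derived from its F statistic, of the 6 members that passed the filter, in the 3 comparisons. The 3 sets are all 10 libraries, those without parabiotic replicate 11 and those without parabiotic replicates 11 and 15. Filled symbols have an adjusted p under 0.05, and Ngp is not drawn where the transgenic group has no count. Mmp8 and Mmp9 stay filled in the comparison of parabiotic cells with microglia under all 3 sets, while Lcn2, at 6.48 with all libraries, lies at -3.01 in the last.

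Other genes of the neutrophil programme were counted from lists. Each count below is to be read beside the shares over all tested genes. In parabiotic cells against microglia 17.4% of them rose and 17.9% fell. The shares were 8.88% and 4.79% in transgenic cells against microglia, and 7.63% and 2.42% in transgenic against parabiotic cells. Among azurophil granule genes, which neutrophils transcribe earliest, Mpo and Elane were scarce. Mpo had 0 to 0.114 CPM in transgenic libraries, 0, 0.632 and 0.321 CPM in parabiotic replicates 3, 11 and 15 and at most 0.0311 CPM in microglia. Elane had 1 count in transgenic cells, 19 counts in parabiotic replicate 11 and none in any other library. Of 8 genes on this list, which also holds an inhibitor of elastase and an activator of granule proteases, 3 could be tested. In parabiotic cells against microglia 2 of the 3 rose, the elastase inhibitor Serpinb1a by 5.86 ± 0.55 on the log2 scale (adjusted p = 2.19e-05) and the serine protease Prtn3 by 4.76 ± 0.79 (adjusted p = 0.000836). Levels in parabiotic replicates 3, 11 and 15 were 6.32, 8.91 and 7.75 CPM for Serpinb1a and 2.42, 1.99 and 1.46 CPM for Prtn3. The third, Ctsc, which activates granule proteases and is used by many other cells, had 1854 to 2677 CPM in transgenic, 1499 to 1526 CPM in parabiotic and 1725 to 1968 CPM in microglia libraries, and a difference of -0.25 ± 0.18 (adjusted p = 0.307). In transgenic cells against microglia Serpinb1a alone of the 3 rose, by 4.30 ± 0.52 (adjusted p = 0.000549), and against parabiotic cells it fell by 1.55 and Prtn3 fell by 2.35 in transgenic cells (adjusted p = 0.0271 and 0.0292). Serpinb1a lost that call without transgenic replicate 24 or any 1 parabiotic library (adjusted p between 0.0522 and 0.105), and Prtn3 without transgenic replicate 23, 24 or 26 or any 1 parabiotic library (between 0.0575 and 0.109), while Prtn3 fell by 3.19 without transgenic replicate 27. The median log2 difference of the 3 was 4.76, 2.42 and -1.55 in the 3 comparisons, beside -0.02, 0.02 and 0.04 over all tested genes.

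Other specific and gelatinase granule genes were tested for 13 of 15. In parabiotic cells against microglia 10 rose and 2 fell, with a median of 2.30. The 2 that fell were Olfm4, by 4.01 ± 1.27 on the log2 scale (adjusted p = 0.0294), and Itgam, by 1.61 ± 0.15 (adjusted p = 1.99e-05). Olfm4 had 3.78 to 6.91 CPM in microglia and 0, 0.572 and 0.321 CPM in parabiotic replicates 3, 11 and 15. Among those that rose were the chitinase-like Chil3, by 10.63 ± 1.49 (adjusted p = 0.000282), and the neutrophil surface antigen Cd177, by 8.32 ± 1.02 (adjusted p = 0.000116). Lyz2, myeloid lysozyme, rose by 3.79 ± 0.22 (adjusted p = 1.65e-06) and Cybb, the NADPH oxidase subunit, by 2.03 ± 0.29 (adjusted p = 0.000308). In transgenic cells against microglia 9 rose and 1 fell, Itgam by 0.78 ± 0.14 (adjusted p = 0.00431), with a median of 1.88. Chil3 rose by 11.09 ± 1.49 (adjusted p = 0.000980) and the haptoglobin gene Hp by 6.29 ± 1.03 (adjusted p = 0.00300). Transgenic replicate 27 carried both, with 491 CPM of Chil3 against 30.2 to 75.1 CPM in the other 3 and 24.7 CPM of Hp against 2.77 to 4.56 CPM, and without it the differences were 9.36 and 4.95, both still called. In transgenic against parabiotic cells 1 rose, Itgam by 0.83 ± 0.14 (adjusted p = 0.00337), and 4 fell, with a median of -0.56. Among the 4, the peptidoglycan-binding Pglyrp1 fell by 2.84 and Cd177 fell by 2.20 (adjusted p = 0.0298 and 0.0420). Pglyrp1 lost that call without transgenic replicate 26, parabiotic replicate 11 or 15 or microglia replicate 40 (adjusted p between 0.0533 and 0.171). Cd177 lost it without transgenic replicate 23, 24 or 26, parabiotic replicate 11 or microglia replicate 40 or 41 (between 0.0634 and 0.337). Lyz2 and Cybb are used by monocytes and macrophages as well. Cd177 had 1.75 to 4.46 CPM in transgenic libraries, 4.70, 30.2 and 6.53 CPM in parabiotic replicates 3, 11 and 15 and at most 0.0634 CPM in microglia, so that replicate 11 was again highest. Without it Cd177 differed by 7.04 between parabiotic cells and microglia, and without microglia replicate 39 by 7.73, or by 5.52 between transgenic cells and microglia. Hp, at 25.2, 31.2 and 15.8 CPM in parabiotic replicates 3, 11 and 15, and Pglyrp1, at 1.74, 8.40 and 3.29 CPM, were also highest in replicate 11. Chil3, at 144.1, 136.9 and 65.0 CPM in the same order, was highest in replicate 3. Lyz2, at 15179, 15240 and 17664 CPM, and Cybb, at 833, 878 and 910 CPM, were highest in replicate 15.

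Surface genes and genes of mature neutrophils were tested for 17 of 25. 13 rose and 1 fell in parabiotic cells against microglia, with a median of 3.67, and 10 rose in transgenic cells against microglia, with a median of 2.24. In transgenic against parabiotic cells 5 fell, with a median of -1.02, among them Padi4, which citrullinates histones and fell by 1.96 ± 0.40 (adjusted p = 0.00998) but was not called without parabiotic replicate 11 (adjusted p = 0.0687). Il1r2, the decoy receptor for interleukin 1, rose in both comparisons with microglia, by 7.48 ± 0.79 in transgenic cells (adjusted p = 0.000233) and 9.45 ± 0.86 in parabiotic cells (adjusted p = 1.73e-05). Its level in parabiotic replicates 3, 11 and 15 was 801, 447 and 519 CPM, highest in the library with the fewest member counts. Csf3r, the receptor of the granulocyte growth factor G-CSF, fell by 1.54 in parabiotic cells against microglia (adjusted p = 0.0125, and 0.0518 without parabiotic replicate 3), and had 68.7 to 305.6 CPM in transgenic, 135.3 to 158.0 CPM in parabiotic and 402.9 to 505.2 CPM in microglia libraries. Cxcr2 did not pass the threshold in any comparison with all libraries, with an adjusted p of 0.0718 in parabiotic cells against microglia, 0.886 in transgenic cells against microglia and 0.0833 between the CD11c groups. Without parabiotic replicate 3 it was called in parabiotic cells against microglia (adjusted p = 0.0152) and between the CD11c groups (adjusted p = 0.0209).

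Transcription factors of granulopoiesis were tested for 5 of 7. Cebpd alone passed the threshold in either comparison with microglia, where it fell by 0.78 ± 0.21 in transgenic cells (adjusted p = 0.0318) and fell by 1.05 ± 0.23 in parabiotic cells (adjusted p = 0.00403). Its call in transgenic cells was lost without transgenic replicate 23 or 26, parabiotic replicate 3 or microglia replicate 39 or 40 (adjusted p between 0.0506 and 0.144). Spi1, which encodes PU.1, had -0.07 ± 0.15 and 0.12 ± 0.16 in the same comparisons (adjusted p = 0.789 and 0.605). Cebpe, required for specific granules, had 0.0824 to 0.216 CPM in transgenic, 0.0569 to 0.662 CPM in parabiotic and 0.0595 to 0.125 CPM in microglia libraries, and Gfi1 did not exceed 0.496 CPM anywhere.

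Receptors and inhibitors of the granule proteins were tested for 8 of 9. In parabiotic cells against microglia 1 rose and 4 fell, with a median of -0.55. Timp1, an inhibitor of Mmp8 and Mmp9, rose by 6.94 ± 0.83 (adjusted p = 0.000104), Timp2, another inhibitor, fell by 1.48 ± 0.27 (adjusted p = 0.00163) and Slc22a17, a receptor of the Lcn2 protein, fell by 5.78 ± 0.36 (adjusted p = 2.63e-06). In transgenic cells against microglia 1 rose and 1 fell, with a median of -0.49. Timp1 rose by 5.66 ± 0.80 (adjusted p = 0.00128), or 4.73 without transgenic replicate 27, and Slc22a17 fell by 1.54 ± 0.27 (adjusted p = 0.00412). In transgenic against parabiotic cells 2 rose, Slc22a17 by 4.24 ± 0.33 (adjusted p = 3.99e-05) and Timp2 by 1.13 ± 0.26 (adjusted p = 0.0172), with a median of 0.19. Timp2 lost that call without parabiotic replicate 3 or 11 (adjusted p = 0.0912 and 0.0667). All these lists were chosen with earlier results of the data known, so their counts are descriptions.

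The members also differed in how closely they followed one another. Pearson's r of log2(CPM + 0.1) between a member and the mean of the other 9 over the 10 libraries, given as a description of points that share libraries and groups, was 0.980 for Retnlg, 0.978 for S100a9, 0.954 for Ltf, 0.954 for Ly6g, 0.945 for Ngp and 0.938 for Camp. It was 0.899 for Lcn2, 0.871 for S100a8, 0.737 for Mmp9 and 0.589 for Mmp8. Likeness was ranked among 12628 other genes that passed the low-count filter. A gene that failed it, as S100a9, Retnlg, Camp and Ly6g did, could not be named. Among the 12628 the pattern most like the mean of the members was that of Tex15 (r = 0.943), Il1f9 (0.943), Pigc (0.940), Ppbp (0.929), Tmem82 (0.911), Hes6 (0.910), Klc4 (0.897), Yif1b (0.888), Ddx55 (0.877) and Mok (0.875). Il1f9, an interleukin 1 family cytokine, reached 2.38 CPM and Ppbp, a chemokine of platelets that attracts neutrophils, 2.98 CPM in parabiotic replicate 11. Pigc, by contrast, varied only between 17.6 and 28.4 CPM over all 10 libraries, so likeness in r is no likeness in size.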

How the data were processed

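Per the labels' protocols, brain tissue was digested with enzymes and cleared on Percoll, unstained cells were sorted by their reporter, and RNA was amplified by template switching before sequencing. Per the submitters' processing notes, FastQC 0.11.5, STAR 2.5.3a, DESeq2 and the genome build GRCm38 were used. For the counting program, annotation, strand setting and treatment of reads with several matches: not given in the sources used here. Whole-number counts per gene were deposited by the authors, and the lowest gene total was 2. Symbols and coordinates come from GENCODE M21 on GRCm38, which named all but 93 genes.

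From these counts, CPM used library totals. All 10 libraries entered 1 fit with a mean per group: filterByExpr (15151 genes kept, 13434 removed), TMM scaling and glmQLFit and glmQLFTest, the quasi-likelihood test of edgeR 4.0.16 (R 4.3.3), fitted with the robust option, adjusted by Benjamini-Hochberg over all tested genes, with a threshold of 0.05. This test gives no SE, so each SE printed is the absolute log2 difference divided by the square root of its F statistic. The script was checked on simulated data. Alternatives were RLE, upper quartile and no scaling factors, DESeq2 1.42.0, limma-voom (limma 3.58.1), no or a stricter filter (5 CPM in 3 libraries), non-robust dispersion, a term for transgenic replicates 26 and 27, only the 2 groups compared, and each library left out. Intervals of single counts and ratios are exact at 95%, and a group with no count was set at 3 counts. Depth per library was 31534625 to 41730688 counts, so the spread between replicates limits most values.

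The members and lists were chosen with earlier results of these data known. All 10 members are named. From each other list the 2 genes with the highest mean CPM in the CD11c libraries and the 2 largest changes past the threshold in each comparison were eligible, with Mpo, Elane, Cebpe, Gfi1, Csf3r and Cxcr2, and not every eligible gene is printed. Olfm4 and Itgam are named as the 2 that fell among the specific and gelatinase granule genes. Genes most like the members are the 10 highest in Pearson's r among those that passed the low-count filter, predicted genes left out. 7 listed genes (Bpi, Stfa1, Stfa3, BC100530, Epx, Prg3 and Fcer1a) were not analysed here.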

Additional observations from a re-analysis of the deposited data

Results flagged for a closer look

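Each of the 10 members and their sum were examined for a sample far from the others in the group of 4 transgenic libraries, the only group large enough for Dixon's test at 95%. Chance flags about 1 in 20 groups of normally distributed values, which does not hold for counts near 0. Where only 1 of the 4 libraries has a count, as for Retnlg and Ly6g, the gap is the whole range. A flag is then certain and says nothing further. S100a8 in transgenic replicate 27 stood at 17.5 CPM, with a gap to the next library of 0.848 of the group's range. Lcn2 in the same library stood at 1.68 CPM, with a gap of 0.928 of the range. Retnlg in transgenic replicate 27 stood at 0.144 CPM, from 6 counts, where the other 3 libraries had none. Ly6g in transgenic replicate 26 stood at 0.0243 CPM, which is 1 count, where the other 3 libraries had none.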

How the results depend on the processing

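No paired analysis was possible because the groups share no replicate numbers. Of 366 alternative values for single members, 313 kept their direction and side of the threshold, 36 were no longer called, 11 became called and 6 changed sign. Mmp8 stayed called against microglia in all 21 alternatives for parabiotic cells (adjusted p from 2.16e-25 to 0.00255) and for transgenic cells (5.66e-16 to 0.0103), and Mmp9 in all 21 for parabiotic cells (0.00012 to 0.0494). Of the 6 members called in parabiotic cells against microglia, 2 were left by limma-voom, 3 by the stricter filter, under which 3 were tested, 3 without a filter and 2 without parabiotic replicates 11 and 15 together. With 1 library left out, 4 to 6 of these 6 stayed called, and calls over the 6 or 10 members then fitted numbered 5 to 10. The single call in transgenic cells against microglia became 2 with DESeq2 and 1 to 2 with a library left out. In transgenic against parabiotic cells, with 3 calls, DESeq2 called 7 of 10 members fitted, and limma-voom called 2, neither among the 3. edgeR called 0 of 10 without a filter (9 at an unadjusted p under 0.05) and 0 of 6 without parabiotic replicates 11 and 15 together (2). With the stricter filter it called 0 of 3 (3 at an unadjusted p under 0.05), and the 3 members called before were not tested. With a library left out, 2 to 3 of the 3 stayed called, and calls over the 6 or 10 members fitted numbered 2 to 7. Lcn2 changed sign in parabiotic cells against microglia without parabiotic replicates 11 and 15 together (-3.01), in transgenic cells against microglia under limma-voom (-0.45), with the term for replicates 26 and 27 (-2.17) and without transgenic replicate 27 (-1.49, with 1.39 the highest when 1 library was left out), and in transgenic against parabiotic cells without parabiotic replicates 11 and 15 together (3.93), as S100a8 did there (0.0485). The mean summed level in microglia was 1.37 CPM without Lcn2 and Mmp9, which held much of it. Fewer genes tested or fewer samples define several of these settings, and otherwise the cause was not tested. Depth limits Ngp, Camp, Retnlg, S100a9, Ly6g, Lcn2 and Ltf outside parabiotic replicates 11 and 15, where most values rest on fewer than 10 counts. It also limits S100a8 in microglia, at 5, 5 and 1 counts in replicates 39, 40 and 41.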
